A study of Homo sapiens with 16 samples.

Results

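The genes described here are those that stood apart from every other line in shAjuba2, 1 of 6 lines made from SW480, an established cell line from a human colon adenocarcinoma. A protein-coding gene was taken when its mean level in shAjuba2 was at least 2 times the highest, or at most 0.5 times the lowest, of the mean levels of the 5 other lines. Levels are in RPM (a gene's count as a share of all counts in its sample, times 1000000), 0.1 was added to each line mean, and the highest line mean had to reach 1 RPM. Of 13359 protein-coding genes past this minimum, 59 met the rule (0.442%), 37 of them higher and 22 lower in shAjuba2. The levels of all 6 lines took part in this choice, so every comparison between lines over the 59 genes is given as a description and is not independent of it.

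The 6 lines were Parental, which was not modified (n = 2), shScrambled with a non-targeting short hairpin RNA (n = 2), shAjuba1 with a hairpin against the coding region of AJUBA (n = 3), shAjuba2 with a hairpin against a non-coding region of it (n = 3), AjubaOE with an AJUBA construct whose plasmid name gives a CMV promoter and FLAG and HA tags (n = 3), and Control, which carried that construct after removal of AJUBA (n = 3). The 5 modified lines were made with lentivirus and selected with puromycin. Each hairpin was represented by 1 line, so the hairpin and the line cannot be told apart. The total count of a sample was 30132396 to 69684675 read pairs. The study calls the replicates of each line technical, and nothing in the labels says that they came from separate cultures. Their spread, and every p-value, is therefore read as technical.

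Ajuba is a LIM domain protein that shuttles between cell junctions and the nucleus. It binds LATS kinases, which restrain YAP and TAZ in the Hippo pathway, and in the nucleus it acts as a cofactor of several transcriptional repressors. YAP and TAZ have no DNA-binding domain of their own and reach their targets through TEAD factors. A short hairpin RNA lowers the transcripts that its guide strand pairs with, and through a shorter stretch at its seed it can also lower other transcripts.

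AJUBA itself was measured at 60.3, 68.6 and 57.1 RPM in the 3 shAjuba2 samples, at 83.4 and 81.6 RPM in shScrambled and at 47.3 to 53.5 RPM in shAjuba1. AjubaOE held 461.8 to 566.2 RPM, against 89.4 to 100.5 RPM in Control. The groups did not overlap, but the fall in shAjuba2 against shScrambled did not pass the test, with a log2 fold change of -0.46 ± 0.13 (SE) and an adjusted p of 0.077 in edgeR's quasi-likelihood test. The fall in shAjuba1 passed it, at -0.73 ± 0.08 with an adjusted p of 2.2e-05. Under 3 of the alternative settings run, the fall in shAjuba2 passed as well. EGFR, the receptor tyrosine kinase that the study also followed, did not meet the rule, with 167.4 RPM in shAjuba2 and 193.8 RPM in AjubaOE. Among markers of colon epithelium, CDX1 was near 0 in all lines, and the summed level of the 11 markers was 2902 to 5496 RPM in shAjuba2 and 4065 to 7009 RPM in the other lines. The lowest of these sums was that of shAjuba2 replicate 2, which also had the highest summed mitochondrial mRNA of all samples, 126531 RPM.

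In all 59 genes the 3 shAjuba2 samples lay outside the range of the 13 other samples. The rule had already set the line means at least 2-fold apart, so this largely follows from the choice. The same count over all genes was not made. The fold from the nearest other line mean was 2.01 to 10.9 in the higher genes, with a median of 2.25, and 2.00 to 3.22 in the lower genes, with a median of 2.31. Most of the genes therefore lay close to the threshold. The 3 nearest genes inside it were CPS1, ANXA2R and CMYA5 on the higher side and NCMAP, TOMM34 and MAL2 on the lower side, and the nearest outside it included ARL14EPL and MEX3B (each at 1.95-fold) and VIL1, TNNI1 and CPLX2 (1.92 to 1.99-fold). The heat map of all 59 genes shows both sets in each sample.

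**Figure D1:**
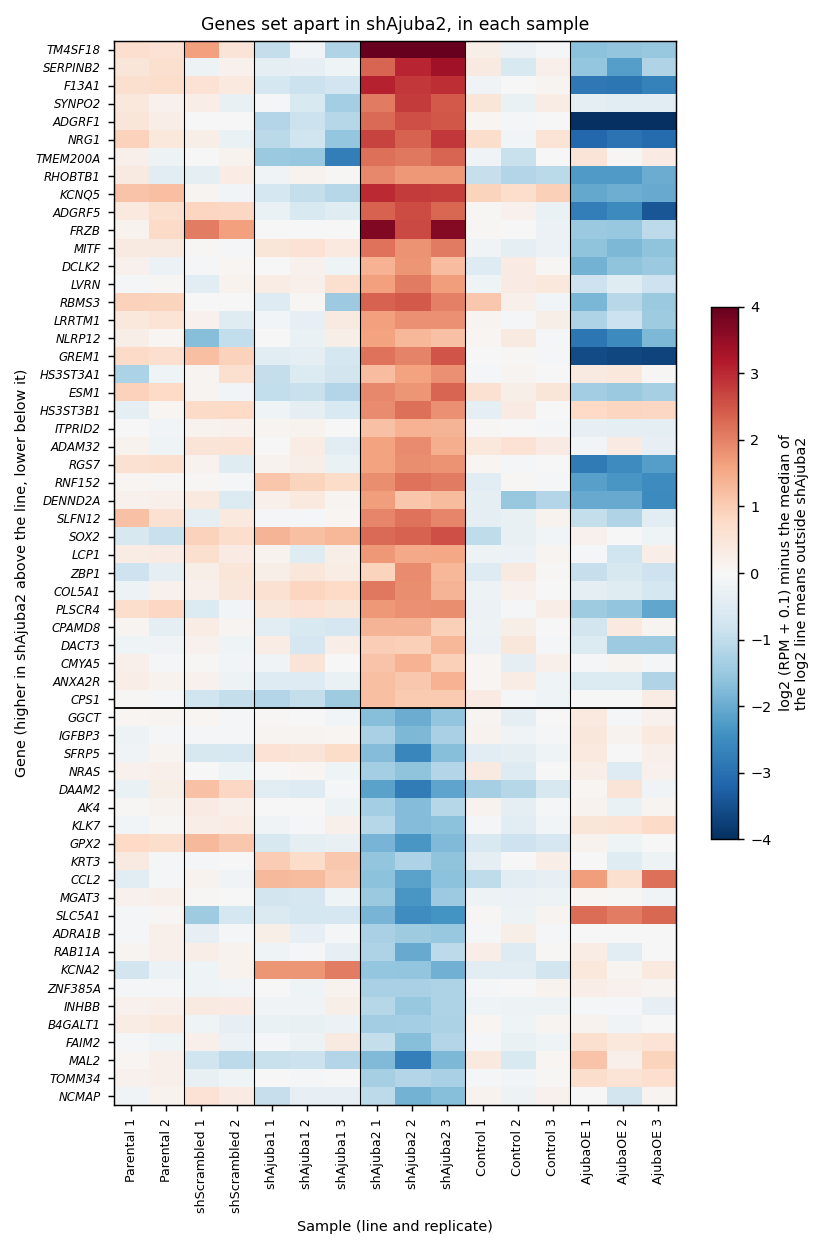
Each row is 1 of the 59 genes and each column 1 of the 16 samples. Colour gives log2 (RPM + 0.1) minus the median of the log2 means of the 5 other lines, and values beyond 4 or -4 have the end colours. The shAjuba2 columns are red for the 37 higher genes and blue for the 22 lower genes, and several of the higher genes are also blue in AjubaOE.

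The gene farthest apart was TM4SF18, which encodes a membrane protein of the transmembrane 4 L6 family and lies at chr3:149318498-149334414 (hg38, minus strand). It was at 7.37, 7.95 and 11.1 RPM in shAjuba2, at 0.417 and 1.01 RPM in shScrambled, at 0.0552 to 0.232 RPM in shAjuba1 and at 0.0144 to 0.0251 RPM, 1 count in each sample, in AjubaOE. Every shAjuba2 sample was thus above 7 RPM and no other sample exceeded 1.01 RPM. F13A1, the catalytic subunit of coagulation factor XIII that crosslinks fibrin, lies at chr6:6144084-6321013 (minus strand). It reached 128.0, 107.0 and 115.8 RPM in shAjuba2, against 1.92 to 24.5 RPM in the other 13 samples. SYNPO2, an actin-bundling protein at chr4:118850688-119061247 (plus strand), was at 2.49, 4.17 and 3.29 RPM against 0.138 to 0.757 RPM. ADGRF1, an adhesion G protein-coupled receptor at chr6:46997708-47042350 (minus strand), was at 83.3, 104.6 and 98.0 RPM against 0.667 to 24.3 RPM. In F13A1 and ADGRF1 the order of the lines was the same at both ends, with Parental the nearest line below shAjuba2 and AjubaOE the lowest.

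The 250 bases before the RefSeq start of these 4 genes (RefSeq, GRCh38.p14) are shown because each holds the letters GGAATG on 1 strand or the other, the core of the element to which TEAD factors are known to bind, and the same stretch of 2 lower genes, IGFBP3 and NRAS, is shown because it holds none and many more CpG. SERPINB2, second by fold at 5.32, holds no GGAATG there and is not shown. Not all lower genes are rich in CpG. From 250 bases before to 50 after the start, GPX2 and KCNA2 hold 4 each and KRT3 holds 1. Nor are all higher genes with GGAATG poor in CpG, and the 4 shown hold the fewest of them. In that window DENND2A holds 39, HS3ST3A1 and ITPRID2 34 each, MITF 30, KCNQ5 24 and SLFN12 13, against 25 in NRAS. The stretches are chr3:149333637-149333886 for TM4SF18, chr6:6320663-6320912 for F13A1, chr6:47042333-47042582 for ADGRF1, chr7:45921273-45921522 for IGFBP3 and chr1:114716772-114717021 for NRAS, all on the minus strand, and chr4:118850431-118850680 on the plus strand for SYNPO2. They are written 5′ to 3′ toward the start of the gene, and capitals mark GGAATG or its reverse complement. The RefSeq start can differ from the end of the GENCODE span given in this text. The stretches of TM4SF18, F13A1 and IGFBP3 lie wholly within that span, and that of ADGRF1 in part.
TM4SF18: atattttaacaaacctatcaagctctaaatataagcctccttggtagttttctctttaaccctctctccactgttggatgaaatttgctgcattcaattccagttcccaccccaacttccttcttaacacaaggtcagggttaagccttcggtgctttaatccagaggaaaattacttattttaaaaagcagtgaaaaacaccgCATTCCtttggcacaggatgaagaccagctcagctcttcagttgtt
F13A1: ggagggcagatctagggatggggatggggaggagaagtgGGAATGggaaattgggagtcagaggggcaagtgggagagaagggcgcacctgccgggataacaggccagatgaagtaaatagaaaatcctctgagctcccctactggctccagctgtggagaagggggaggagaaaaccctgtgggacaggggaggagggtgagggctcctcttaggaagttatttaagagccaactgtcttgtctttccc
SYNPO2: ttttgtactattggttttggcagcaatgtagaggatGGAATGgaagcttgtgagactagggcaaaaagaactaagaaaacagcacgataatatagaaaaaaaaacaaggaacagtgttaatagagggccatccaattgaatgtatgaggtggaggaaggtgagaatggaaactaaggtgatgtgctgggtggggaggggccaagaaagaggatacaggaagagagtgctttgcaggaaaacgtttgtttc
ADGRF1: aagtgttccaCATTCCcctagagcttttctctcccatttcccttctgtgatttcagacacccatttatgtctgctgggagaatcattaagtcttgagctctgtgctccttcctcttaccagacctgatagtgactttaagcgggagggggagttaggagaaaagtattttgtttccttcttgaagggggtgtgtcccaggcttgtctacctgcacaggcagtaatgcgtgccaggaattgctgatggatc
IGFBP3: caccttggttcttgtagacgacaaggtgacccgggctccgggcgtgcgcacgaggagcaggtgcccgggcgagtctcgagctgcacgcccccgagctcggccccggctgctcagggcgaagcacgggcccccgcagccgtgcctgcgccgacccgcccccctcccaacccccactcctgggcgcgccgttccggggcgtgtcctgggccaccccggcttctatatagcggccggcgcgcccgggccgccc
NRAS: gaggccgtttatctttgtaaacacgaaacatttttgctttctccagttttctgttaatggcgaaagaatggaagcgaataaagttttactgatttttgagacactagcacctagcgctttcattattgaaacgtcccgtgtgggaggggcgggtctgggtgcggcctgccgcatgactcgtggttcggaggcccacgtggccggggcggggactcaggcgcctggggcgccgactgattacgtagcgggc

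Promoter windows from 250 bases before to 50 after the RefSeq start matched 33 of the 37 higher and 16 of the 22 lower genes by symbol. GGAATG, searched on both strands, was in 10 of the 33 higher windows (30.3%) and in 0 of the 16 lower windows, against 10.9% of the 10797 windows of all protein-coding genes past the level minimum. The 10 genes were TM4SF18, F13A1, SYNPO2, ADGRF1, KCNQ5, MITF, HS3ST3A1, ITPRID2, DENND2A and SLFN12, with 1 match each, 46 to 240 bases before the start. A ratio of observed to expected CpG under 0.5 was found in 11 of the 33 higher windows (33.3%), in 3 of the 16 lower windows (18.8%) and in 14.3% of all windows. Among windows under that ratio, GGAATG was in 4 of the 11 higher and in 19.9% of all, and among the rest in 6 of 22 higher and in 9.44% of all. Of the other motifs searched on both strands, TATAAA was in 4 higher windows and 1 lower window (5.81% of all), TGANTCA, an element that AP-1 binds, in 2 and 0 (4.55% of all), and GGGCGG, the GC box, in 22 and 14 (70.5% of all). Matches were counted whether or not they overlapped a match of another motif.

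Several other higher genes encode receptors, ligands and channels of the cell surface. NRG1, a ligand of the receptors ERBB3 and ERBB4, was at 8.11, 6.35 and 8.95 RPM in shAjuba2, at 0.331 to 0.631 RPM in shAjuba1 and at 0.0431 to 0.0625 RPM in AjubaOE, where it had 3, 3 and 2 counts. ADGRF5, a receptor of the same family as ADGRF1, was at 5.35, 6.44 and 5.21 RPM in shAjuba2, against 0 to 1.87 RPM in the other samples. KCNQ5, a voltage-gated potassium channel, was at 5.53, 4.80 and 4.73 RPM against 0.0718 to 1.53 RPM. In each of these 3 genes AjubaOE was the lowest line and no other sample reached the lowest shAjuba2 sample.

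ADGRF1 and ADGRF5 were the only 2 of the 59 genes whose starts lay within 500 kb of each other, 87407 bases apart on the same strand of chromosome 6. Their neighbours of the same family, ADGRF2 and ADGRF4, had at most 4 and 3 counts in any sample. RCAN2, PLA2G7, CYP39A1, TDRD6, SLC25A27 and TNFRSF21, within 500 kb of ADGRF1 or ADGRF5, also had their highest line mean in shAjuba2. Their shAjuba2 means were 1.13 to 1.58 times the highest other line mean (0.1 added), and that of CD2AP was 0.67 times. The other genes within 500 kb of a higher gene numbered 164, with a median log2 ratio of shAjuba2 to shScrambled of 0.04, and 8 of them differed by 2-fold or more (4.88%). Around the lower genes the median was -0.04 over 205 neighbours, 7 of them (3.41%) at 2-fold or more, and over all 13359 genes it was 0.02, with 4.14% at 2-fold or more. Chromosome 6 held 6 of the 59 genes (10.2%) and 5.19% of all genes past the minimum, and chromosomes 11, 16, 21, X and M, with 5.81%, 4.61%, 0.913%, 3.29% and 0.0973% of those genes, held none. HS3ST3A1 and HS3ST3B1, related heparan sulfate sulfotransferases on chromosome 17, lay farther apart than 500 kb. HS3ST3A1 was at 1.59, 2.09 and 2.49 RPM in shAjuba2, and HS3ST3B1 at 3.78, 4.71 and 3.64 RPM, while no other sample exceeded 1.03 and 1.79 RPM, respectively.

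The higher genes with secreted products include inhibitors of proteases, BMP and Wnt ligands. SERPINB2, which inhibits plasminogen activators, was at 2.19, 3.74 and 4.65 RPM in shAjuba2 and at 0 to 0.616 RPM elsewhere. GREM1, an antagonist of BMP ligands, was at 16.2, 14.03 and 20.6 RPM in shAjuba2, at 6.72 and 8.15 RPM in shScrambled and at 0.176 to 0.201 RPM in AjubaOE. FRZB, a secreted Wnt antagonist, was at 6.73, 3.13 and 6.54 RPM in shAjuba2, with replicate 2 at less than the rest of its line and still above the 1.53 and 2.06 RPM of shScrambled. ESM1, a proteoglycan secreted by endothelium among other cells, was at 105.7, 93.9 and 140.3 RPM in shAjuba2 and at 9.79 to 52.6 RPM elsewhere. The endothelial markers CDH5 and KDR were near 0, and the summed level of 5 endothelial markers in shAjuba2, 2.59 to 3.03 RPM, lay within the 2.28 to 5.45 RPM of the other lines. COL5A1, a fibrillar collagen chain, was at 5.44, 4.51 and 3.15 RPM in shAjuba2 and at 0.679 to 2.22 RPM elsewhere. The summed level of 7 fibroblast markers moved with it, at 25.0 to 37.6 RPM in shAjuba2 and 6.21 to 24.6 RPM in the other lines. Of those markers 2 had a line mean of 1 RPM or more, and COL3A1, DCN and POSTN were near 0.

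Of the transcription factors, MITF, the master regulator of melanocytes, was at 32.7, 25.2 and 30.6 RPM in shAjuba2, at 9.36 to 10.9 RPM in shAjuba1 and at 1.98 to 2.29 RPM in AjubaOE. SOX2, a factor of pluripotent and neural stem cells, was at 9.44, 9.98 and 11.7 RPM in shAjuba2, at 4.48 to 4.94 RPM in shAjuba1 and at 0.97 and 1.17 RPM in Parental. In both genes shAjuba1 was the nearest line below shAjuba2, and SOX2 was also above Parental in shScrambled, at 3.10 and 3.65 RPM. ITPRID2, a partner of inositol trisphosphate receptors, had the highest level of the 59 genes, with 483.2, 568.7 and 552.5 RPM in shAjuba2 and a narrow 166.0 to 241.3 RPM in the other 13 samples. LCP1, an actin-bundling protein of leukocytes and of many tumours, was at 2.04, 1.73 and 1.77 RPM against 0.271 to 0.905 RPM. The leukocyte markers PTPRC and TYROBP were near 0, and the sum of 7 leukocyte markers in shAjuba2, 11.3 to 14.7 RPM, lay within the 10.5 to 34.2 RPM of the other lines. Part of the exons of LCP1 (19.0% of their length) overlap an antisense gene with at most 26 counts.

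The remaining higher genes had shAjuba2 means from 1.03 RPM in SLFN12 to 6.94 RPM in DCLK2. TMEM200A, a membrane protein, was at 4.73, 4.41 and 5.23 RPM in shAjuba2 and at 0.0552 to 1.39 RPM elsewhere, and RHOBTB1 was at 2.49, 2.21 and 2.18 RPM against 0.0417 to 0.773 RPM. DCLK2, a microtubule-associated kinase, RGS7, a regulator of G protein signalling, RNF152, a ubiquitin ligase of lysosomes, PLSCR4, a phospholipid scramblase, and DACT3, an inhibitor of Wnt signalling at Dishevelled, were on the same side. So were RBMS3, an RNA-binding protein, LRRTM1, a synaptic adhesion protein, LVRN, an aminopeptidase, ADAM32, a member of the ADAM protease family, and CPS1, the first enzyme of the urea cycle. The sensors of innate immunity NLRP12 and ZBP1 were at 2.06 to 2.79 RPM and 1.55 to 3.24 RPM in shAjuba2. SLFN12, DENND2A, CPAMD8, CMYA5 and ANXA2R complete the set. DENND2A shares 2.32% of its exon length with ADCK2 on the opposite strand, which had up to 1040 counts, and ANXA2R 5.15% with ANXA2R-AS1, which had up to 334. The strand setting of the counting is not given in the sources used here. The plot of the 12 higher genes farthest from the other lines gives their values in each sample.

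**Figure D2:**
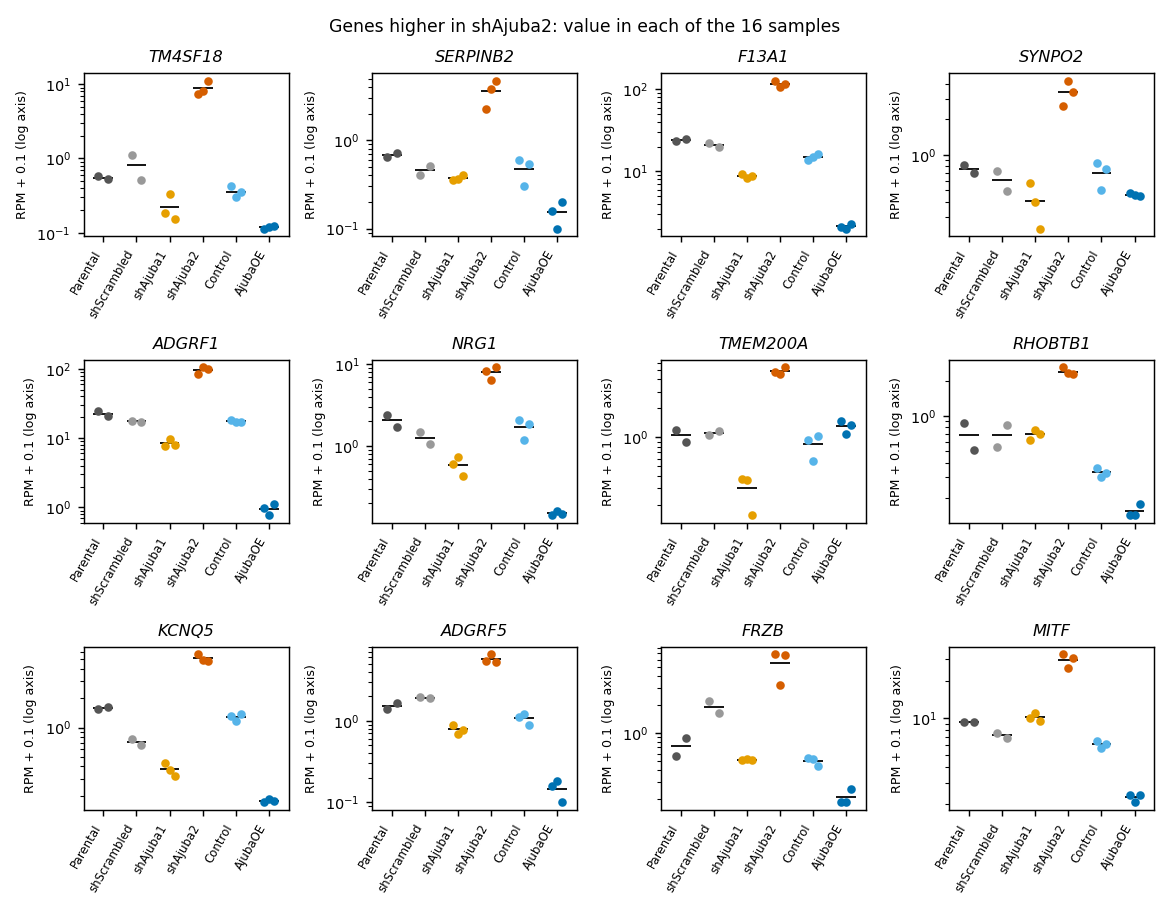
RPM + 0.1 on a log axis for the 12 genes with the largest fold above the nearest other line among those that still met the rule without shAjuba2 replicate 2. Points are samples and bars are line means, and in every panel the 3 shAjuba2 points lie above all others.

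The lower genes were on the whole better expressed. The highest line mean reached 10 RPM in 13 of the 22 lower genes and in 7 of the 37 higher genes, against 76.3% of all genes past the minimum. Divided by exon length, the median of the highest line mean was 8.82 RPM per kb in the lower genes, 0.480 in the higher genes and 6.23 over all genes. GGCT, gamma-glutamylcyclotransferase of glutathione breakdown, was the farthest apart of the lower genes and lies at chr7:30496621-30504841 (minus strand). It was at 20.1, 16.8 and 22.1 RPM in shAjuba2 and at 51.8 to 85.9 RPM in the other 13 samples. AK4, a mitochondrial adenylate kinase, was at 23.9, 18.2 and 27.9 RPM against 47.1 to 77.6 RPM. GPX2, the glutathione peroxidase of the gut epithelium, was at 1.74, 1.22 and 1.87 RPM against 3.67 to 16.05 RPM. GGCT shares 27.7% of its exon length with another gene of the same strand that had at most 2 counts. All 3 enzymes had their lowest value of any sample in shAjuba2 replicate 2.

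NRAS, a small GTPase downstream of growth factor receptors, lies at chr1:114704469-114716771 (minus strand). It was at 33.2, 28.0 and 37.9 RPM in shAjuba2 and at 60.2 to 111.3 RPM in the other samples. HRAS did not meet the rule, with a mean of 35.5 RPM in shAjuba2 and means of 30.04 to 35.4 RPM in the other lines. RAB11A, a GTPase of recycling endosomes, was at 33.7, 19.3 and 38.6 RPM in shAjuba2 against 55.7 to 98.3 RPM. Its relative RAB11B had a mean of 61.9 RPM in shAjuba2 and 49.2 to 58.0 RPM in the other lines. NRAS and RAB11A stood apart, whereas HRAS and RAB11B did not. MAL2, a protein of apical transcytosis, was at 11.7, 5.83 and 11.3 RPM in shAjuba2 and at 17.3 to 86.4 RPM elsewhere.

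Among lower genes with secreted products, IGFBP3, which binds insulin-like growth factors, was at 49.0, 34.1 and 48.8 RPM in shAjuba2 and at 104.2 to 164.7 RPM elsewhere (chr7:45912245-45921874, minus strand). SFRP5, a secreted Wnt antagonist, was at 4.41, 2.37 and 4.47 RPM in shAjuba2, at 9.46 in both shScrambled samples and at 21.2 to 24.4 RPM in shAjuba1. INHBB, the beta-B subunit of activins and inhibins, was at 21.2, 16.5 and 19.96 RPM against 37.9 to 60.1 RPM. The samples of the other lines lay within 2-fold of each other in IGFBP3 and INHBB, whereas SFRP5 was at its highest in shAjuba1. CCL2, a chemokine that attracts monocytes, had 2, 0 and 2 counts in shAjuba2, so no fold is given, and it was at 0.117 to 1.91 RPM elsewhere. KLK7, a secreted serine protease, was at 1.93, 1.24 and 1.34 RPM in shAjuba2 and at 3.16 to 7.42 RPM elsewhere.

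B4GALT1 and MGAT3, glycosyltransferases of the Golgi, were at 11.5, 11.9 and 12.6 RPM and at 3.81, 2.12 and 3.93 RPM in shAjuba2, with no other sample under 24.03 and 6.59 RPM. ZNF385A, a zinc finger protein, was at 27.8, 27.7 and 28.6 RPM against 60.3 to 82.2 RPM, and TOMM34, a cochaperone of mitochondrial import, at 43.9, 48.3 and 44.3 RPM against 89.4 to 178.8 RPM. Replicate 2 of shAjuba2 was not set off from the rest of its line in these last 2 genes. KCNA2, a potassium channel, was at 0.709, 0.698 and 0.535 RPM in shAjuba2 and at 7.998 to 9.74 RPM in shAjuba1. SLC5A1, the sodium and glucose cotransporter of enterocytes, was at 0.0901 to 0.193 RPM in shAjuba2 and at 4.35 to 5.23 RPM in AjubaOE. ADRA1B, an adrenergic receptor, was at 1.42, 1.28 and 1.19 RPM in shAjuba2 and at 2.82 to 4.28 RPM elsewhere. DAAM2, a formin that takes part in Wnt signalling, KRT3, a keratin of cornea, FAIM2, an inhibitor of FAS-mediated death, and NCMAP, a myelin protein, had shAjuba2 means of 0.199, 0.216, 0.813 and 0.558 RPM. The plot of the 12 lower genes farthest from the other lines gives each sample.

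**Figure D3:**
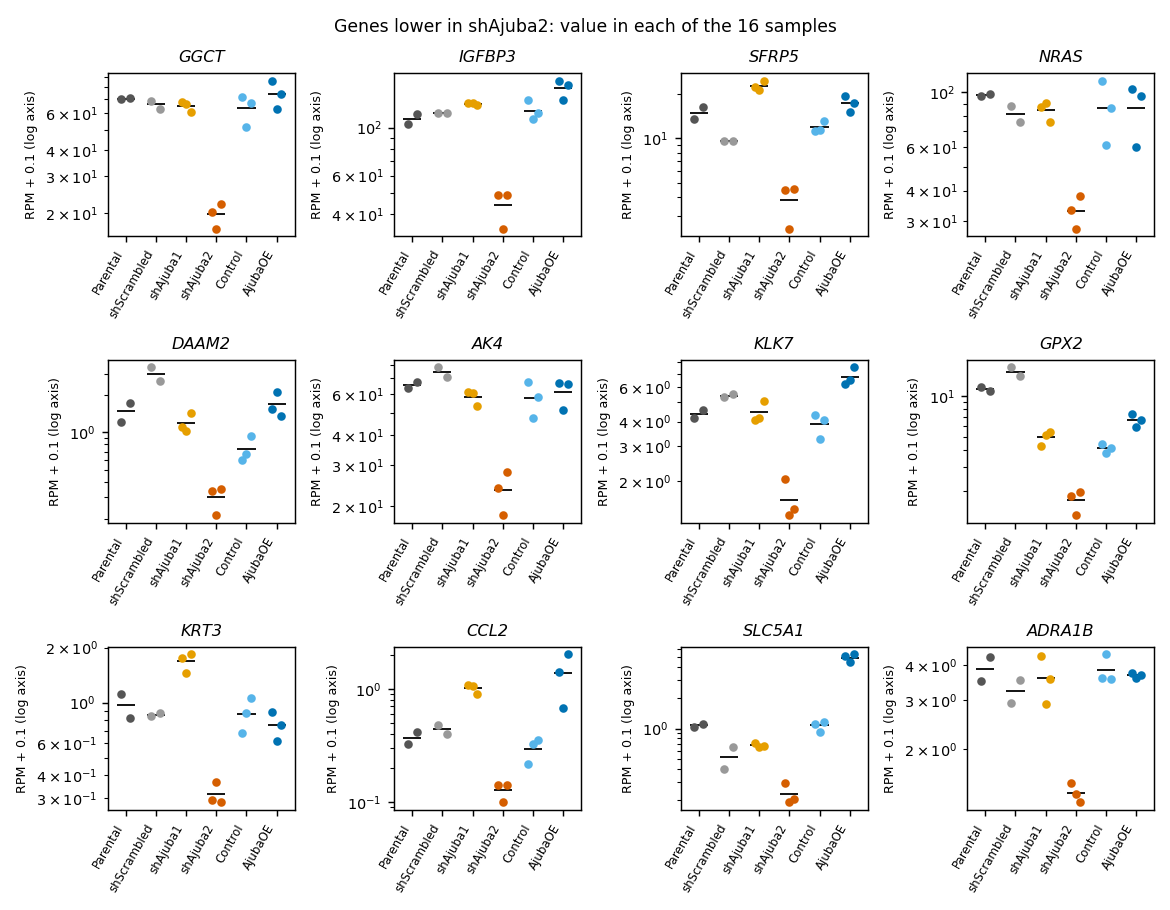
RPM + 0.1 on a log axis for the 12 genes with the largest fold below the nearest other line among those that still met the rule without shAjuba2 replicate 2. Points are samples and bars are line means, the shAjuba2 points lie below all others in every panel, and replicate 2 is the lowest of them in 10 panels.

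Without shAjuba2 replicate 2, 49 of the 59 genes still met the rule, 33 higher and 16 lower. The genes lost were SLFN12, ZBP1, CPAMD8 and CMYA5 on the higher side and MGAT3, RAB11A, INHBB, FAIM2, MAL2 and NCMAP on the lower side. Without replicate 1 and without replicate 3, 55 genes stayed in each case, and 43 stayed whichever of the 3 was left out. Replicate 2 was the lowest shAjuba2 sample in 17 of the 22 lower genes (77.3%), in 11 of the 37 higher genes (29.7%) and in 55.9% of all genes past the minimum. Replicate 2 was also the lowest of its line in 15 of the 22 lower genes in Control (68.2%, and 48.6% of all genes) and in 17 of 22 in AjubaOE (77.3%, and 53.8% of all genes), and in shAjuba1 in 10 of 22 (45.5%, and 38.8% of all genes). In NRAS, for instance, Control was at 111.3, 60.9 and 86.2 RPM and AjubaOE at 102.8, 60.2 and 96.4 RPM, so that replicate 2 was low in Control and AjubaOE too. Its summed mitochondrial mRNA was the highest of all samples in shAjuba2, as given above, and the part of RNA composition in these values was not tested.

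**Figure D4:**
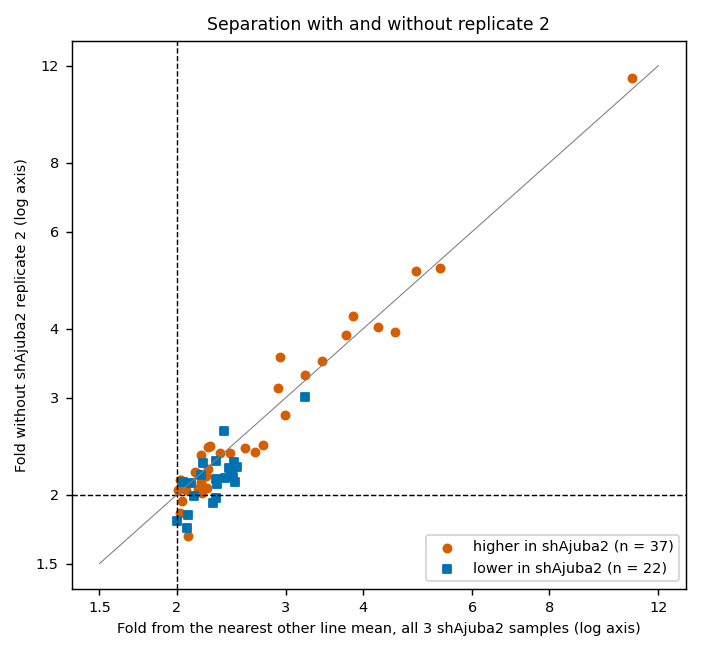
Each point is 1 of the 59 genes. The x axis gives its fold from the nearest other line mean with all 3 shAjuba2 samples and the y axis the same without shAjuba2 replicate 2, both on log axes, and the dashed lines mark the threshold of 2. Of the 10 genes that no longer met the rule, 9 lie below the horizontal line, and SLFN12, at 2.05-fold, was lost because its highest line mean fell under 1 RPM. With 3 samples the 10 genes were at 2.00 to 2.32-fold.

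Each shAjuba2 sample was also held out in turn, genes were picked by the rule from the remaining pair, and the sample left out was set against the same 5 line means. Replicate 1 passed the threshold on its own in 25 of 38 higher picks (65.8%) and 16 of 29 lower picks (55.2%), replicate 2 in 27 of 39 (69.2%) and 15 of 17 (88.2%), and replicate 3 in 28 of 37 (75.7%) and 17 of 26 (65.4%). Over all genes past the minimum, the samples left out passed it in 0.262% to 0.532% on the higher side and in 0.135% to 1.40% on the lower side, the last value being that of replicate 2. Each sample left out is a replicate of the line that gave the picks, set against the line means that chose them. The shares of picks therefore describe how alike the replicates of that line were, and are no separate test of the genes.

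Against shScrambled, the contrast closest to the one the rule used, 35 of the 37 higher genes were called higher by edgeR and 21 of the 22 lower genes were called lower at an adjusted p under 0.05. All genes tested gave 3.19% called higher and 4.44% called lower, and the protein-coding genes past the level minimum 3.69% and 5.41%. HS3ST3A1, ZBP1 and SLC5A1 were not called.

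The other 5 lines also varied among themselves, most of all in the higher genes. The highest of their line means was at least 2 times the lowest in 30 of the 37 higher genes (81.1%), in 8 of the 22 lower genes (36.4%) and in 17.2% of all genes past the minimum, and the median of this ratio was 4.37, 1.69 and 1.40. AjubaOE was the lowest of the 5 lines in 29 of the 37 higher genes (78.4%), a place it held in 24.7% of all genes. AjubaOE was the highest of the 5 in 9 of the 22 lower genes (40.9%), against 12.9% of all genes, and Control was the lowest of them in 9 (40.9%), against 14.5% of all genes.

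AjubaOE against Control holds no shAjuba2 sample, but the means of both lines took part in choosing the 59 genes, and some higher genes passed the level minimum through shAjuba2 alone, so its edgeR counts describe the chosen genes. Of the 37 higher genes, 32 passed the filter on low counts, and of these 16 were called lower in AjubaOE (50.0%), against 3.03% of all 21140 genes tested and 3.6% of the protein-coding genes past the level minimum. None was called higher, where 2 had an unadjusted p under 0.05 and DESeq2 called 1. Of the 16, F13A1, ADGRF1, MITF, DCLK2 and ESM1 were over the filter in every sample of both lines, and the other 11 were not over it in every AjubaOE sample. The filter could thus favour genes that fell, and in a fit of every gene with at least 1 count, which tested all 37, 18 were called lower (48.6%, against 3.56% of protein-coding genes past the minimum) and 1, HS3ST3B1, higher (3.94%). That fit added TM4SF18 and SERPINB2, which the filter had removed together with RHOBTB1, DENND2A and SLFN12. With 1 Control or AjubaOE sample left out at a time, 11 to 15 of the higher genes were called lower, the fewest without Control replicate 3.

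F13A1 was at 13.7, 15.1 and 16.2 RPM in Control and at 1.98, 1.92 and 2.21 RPM in AjubaOE, a log2 fold change of -2.82 ± 0.13 (adjusted p = 8.0e-05). ADGRF1 went from 18.3, 16.8 and 17.1 RPM to 0.890, 0.667 and 1.01 RPM, at -4.29 ± 0.16 (5.3e-05). Neither gene had overlapping samples. GREM1 was at 3.55, 3.59 and 3.37 RPM in Control against 0.176 to 0.201 RPM in AjubaOE (-4.13 ± 0.18, adjusted p = 7.7e-05), MITF at 6.47, 5.61 and 6.06 RPM against 1.98 to 2.29 RPM (-1.41 ± 0.13, 0.0012), and ESM1 at 42.4, 32.4 and 38.9 RPM against 9.79 to 10.8 RPM (-1.81 ± 0.13, 0.00039). NRG1, KCNQ5, ADGRF5, FRZB, DCLK2, RBMS3, LRRTM1, NLRP12, RGS7, RNF152 and PLSCR4 made up the rest of the 16, with adjusted p from 0.0004 in KCNQ5 to 0.041 in RBMS3. In NRG1, ADGRF5, RBMS3, LRRTM1, RGS7, RNF152 and PLSCR4 each AjubaOE sample had at most 4 counts. ITPRID2, SYNPO2, SOX2, COL5A1 and CPS1, in contrast, were not called, at -0.28, -0.67, 0.51, -0.50 and 0.12.

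All 22 lower genes were tested in AjubaOE against Control, and 9 were called higher (40.9%), against 2.39% of all genes tested and 3.25% of the protein-coding genes past the minimum. None was called lower, either at an unadjusted p under 0.05 or by DESeq2. SLC5A1 was at 1.02, 0.836 and 1.07 RPM in Control and at 4.99, 4.35 and 5.23 RPM in AjubaOE, a log2 fold change of 2.38 ± 0.17 (adjusted p = 0.00035). TOMM34 was at 106.2, 101.3 and 111.8 RPM against 178.8, 161.0 and 175.3 RPM, at 0.75 ± 0.09 (0.0034). The AjubaOE samples of both genes were all above those of Control. CCL2, DAAM2, KCNA2, KLK7, FAIM2, GPX2 and SFRP5 were the others, at 2.68 to 0.60. GGCT, IGFBP3, NRAS, AK4, RAB11A, ZNF385A, INHBB and B4GALT1 were not called, with log2 fold changes of 0.05 to 0.40, and neither were MAL2, at 0.85 ± 0.29, KRT3, at -0.18 ± 0.26, NCMAP, at -0.17 ± 0.25, and ADRA1B, at -0.00023 ± 0.14. The calls of lower genes rested on few samples, since leaving out 1 sample at a time left 2 to 8 of them, the fewest without Control replicate 3 or AjubaOE replicate 3.

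The rule was also applied with AjubaOE and Control left out of it, an alternative chosen after seeing the data, so that neither line of this comparison took part in the choice. It picked 43 genes as higher, the 37 among them, and 62 as lower, with 20 of the 22 among them. In AjubaOE against Control 18 of 38 higher picks tested were called lower (47.4%), against 3.6% of the protein-coding genes past the minimum in the 4 lines used, and 0 were called higher, where 3 had an unadjusted p under 0.05 and DESeq2 called 2. Of 46 lower picks tested 9 were called higher (19.6%, against 3.15%) and 0 lower, where 6 had an unadjusted p under 0.05 and DESeq2 called 2. The 37 higher genes make up most of the 43 higher picks, so the share of these called could hardly differ from the one above. It is not a separate result. The share of lower picks called was less than 40.9%.

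**Figure D5:**
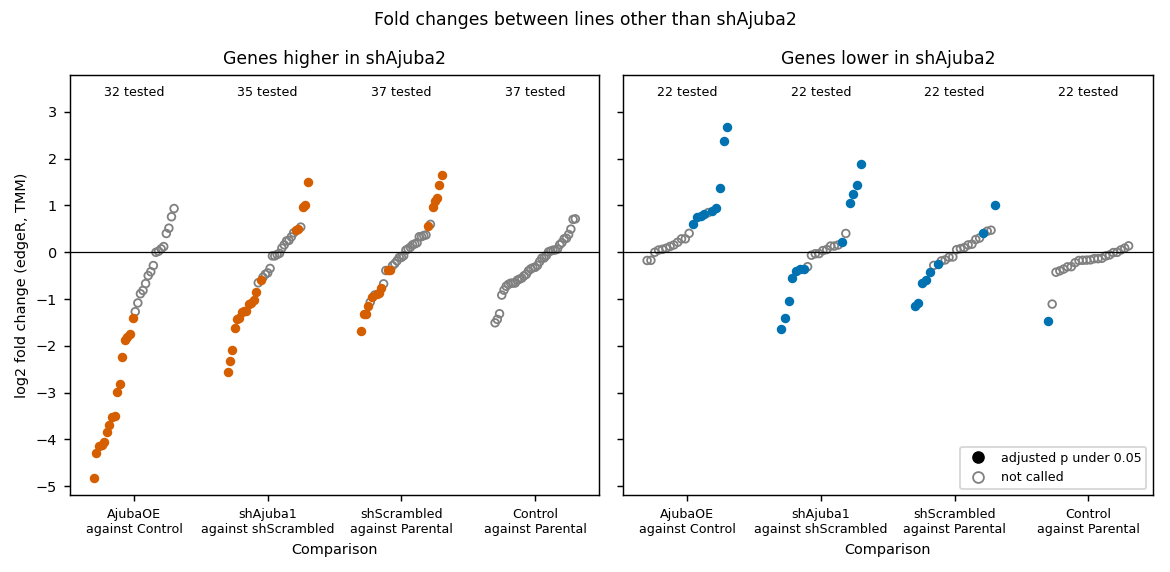
log2 fold change (edgeR, TMM) of the 37 higher genes (left) and the 22 lower genes (right) in the 4 comparisons that hold no shAjuba2 sample. Each point is a gene, ordered by value within a comparison, and filled points are called at an adjusted p under 0.05. In AjubaOE against Control the 16 filled points on the left lie below 0 and the 9 on the right above it.

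shAjuba1, the other line with a hairpin against AJUBA, differed from shScrambled in 38.4% of all genes tested, 18.2% higher and 20.2% lower. Of 35 higher genes tested (RBMS3 and SLFN12 were not), 14 were called lower in shAjuba1 (40.0%) and 5 higher (14.3%), against 24.4% and 21.8% of the protein-coding genes past the minimum. Of the 22 lower genes, 5 were called higher (22.7%) and 7 lower (31.8%), close to these backgrounds. The 14 included F13A1 (-1.29 ± 0.11, adjusted p = 1.6e-06), ADGRF1 (-1.08 ± 0.12, 1.5e-05), GREM1 (-1.61 ± 0.15, 4.4e-06), TM4SF18 (-2.56 ± 0.55, 0.0027) and NRG1 (-1.25 ± 0.29, 0.0047), whose levels were raised in shAjuba2. Of the 14, 10 were over the filter on low counts in every sample of both lines, and TM4SF18 was not among these. MITF, NLRP12, RNF152, SOX2 and PLSCR4 were called higher, at 0.47 to 1.50, and 3 of these 5 were over the filter in every sample. Among the lower genes, KCNA2 (1.88 ± 0.15, adjusted p = 1.3e-06) and SFRP5 (1.24 ± 0.11, 1.9e-06) were called higher and GPX2 (-1.65 ± 0.13, 9.3e-07) and DAAM2 (-1.41 ± 0.20, 0.00014) lower. The 2 hairpin lines share the shScrambled samples as their reference.

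The lines without a change of AJUBA by design also differed in these genes. Between shScrambled and Parental, 6 of the 37 higher genes were called higher (16.2%) and 10 lower (27.0%), near the 15.2% and 22.1% of the protein-coding genes past the minimum, and 15.0% and 15.6% of all genes tested. Of the lower genes 2 were called higher and 6 lower. SOX2 had the largest rise of the higher genes (1.65 ± 0.21, adjusted p = 1.8e-06) and NLRP12 the largest fall (-1.68 ± 0.35, 0.0007), and MAL2 fell by 1.08 ± 0.09 on the log2 scale (adjusted p = 5.0e-09). Between Control and Parental, 0 of the 37 higher genes were called at an adjusted p under 0.05, with 12 lower and 1 higher at an unadjusted p under 0.05 and 3 called lower by DESeq2, and 1 of the 22 lower genes was called, GPX2 (-1.47 ± 0.13, 0.0069). Over all genes tested, 0.0508% were called higher and 0.319% lower in that comparison, and over the protein-coding genes past the minimum 0.0225% and 0.434%.

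Some of the 59 genes were in 18 gene lists written for pathways around Ajuba and colon cancer. The share of all genes that these lists hold was not counted, so membership is given as a description. The counts of each list stand against 3.19% of all genes tested called higher and 4.44% lower in shAjuba2 against shScrambled, and 2.39% and 3.03% in AjubaOE against Control. Targets of YAP and TAZ held IGFBP3 and RBMS3, and of 27 targets tested in shAjuba2 against shScrambled 3 were called higher (AMOTL1, RBMS3, F3) and 4 lower (IGFBP3, CCN2 and MYOF among them), with a median log2 fold change of 0.20 against -0.01 over all genes tested. In AjubaOE against Control, 13 of the same 27 were called lower and 2 higher, AJUBA itself among them, and the median was -0.50, against -0.01 over all genes. Of 35 BMP, TGF-beta and ID genes, which include GREM1 and INHBB, 4 were called higher and 4 lower in shAjuba2 (median log2 fold change -0.01), and of 34 in AjubaOE 4 were higher and 8 lower (median -0.13), GREM1 among the latter. Wnt genes, with SFRP5, had 3 of 45 higher and 8 lower in shAjuba2 (median 0.06), and 9 of 44 higher and 6 lower in AjubaOE (median 0.07). NF-kB targets and chemokines, with CCL2, had 2 of 29 higher and 1 lower in shAjuba2 (median 0.29), and 9 of 26 higher and 2 lower in AjubaOE (median 0.49). Extracellular matrix genes, with COL5A1, had 2 of 63 higher and 10 lower in shAjuba2 (median 0.00), and 3 of 60 higher and 10 lower in AjubaOE (median -0.23). Stem cell markers and aldehyde dehydrogenases, with SOX2, had 1 of 29 higher and 3 lower in shAjuba2 (median -0.11), and 0 of 26 higher and 2 lower in AjubaOE (median 0.09). The gene lists of EGFR signalling, interferon, antigen presentation, Notch, cell adhesion, keratins, intestinal differentiation, cholesterol synthesis, stress, axon guidance, S100 proteins and cancer-testis antigens held none of the 59 genes. The lists are not complete. The keratin KRT3, the ERBB ligand NRG1 and FRZB, DACT3 and DAAM2 of Wnt signalling are among the 59 genes but in none of the lists.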

How the data were processed

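The authors aligned paired reads of stranded mRNA libraries to hg38 with HISAT2, counted read pairs on exons with featureCounts and deposited raw counts per gene for 16 samples. Their tool versions, annotation release and strand setting are not given in the sources used here. Samples were grouped by line as labelled. Gene names and positions came from GENCODE 44 (56434 of 66023 genes found, with 99.8% of counts).

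RPM, line means and the rule were computed from the counts. The genes described and the gene lists were chosen with earlier results of these data known. Genes named with full values were, on each side, the 12 with the largest fold among those still meeting the rule without shAjuba2 replicate 2, genes of the lists, genes within 500 kb of each other, AJUBA and EGFR. The other members, relatives and marker genes named were chosen after their values were seen.

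Pairs of lines were compared with edgeR 4.0.16 (R 4.3.3): filterByExpr, TMM, quasi-likelihood test (two-sided), Benjamini-Hochberg adjustment over all genes tested. DESeq2 1.42.0, other scalings, filters and left-out samples were alternatives. Standard errors were derived from the fold change and its F statistic. Scripts were tested on simulated data. Depth limits the low genes. Some items are not reported here.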

Additional observations from a re-analysis of the deposited data

How the results depend on the processing

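The number of genes meeting the rule (59) was 56 with TMM-scaled values (30 higher and 26 lower) and 55 with DESeq2 size factors, with 52 and 51 genes shared, and 55 to 67 with 1 sample left out. It moved to 35 and 27 with an offset of 0.5 and 1, to 29 with a minimum of 5 RPM, to 10 and 241 with a ratio of 3 and 1.5, and to 105 with AjubaOE and Control left out of the rule, chosen after seeing the data.

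Of the 59 genes, 56 were called in shAjuba2 against shScrambled (23 to 59 with 1 sample left out, 23 without shScrambled replicate 2, 27 without replicate 1 and 36 without shAjuba2 replicate 1), 31 in shAjuba1 against shScrambled (20 to 31, 20 without either shScrambled sample) and 25 in AjubaOE against Control (13 to 23, 13 without Control replicate 3 and 15 without Control replicate 1 or AjubaOE replicate 1). With replicate 2 of both lines left out, chosen after seeing the data, 27 were called in the last comparison. In shScrambled against Parental 24 were called (13 to 18, 13 without shScrambled replicate 2), and 13 by DESeq2 and 12 by edgeR on all 16 samples. In Control against Parental 1 was called (0 to 5, 5 without Control replicate 2), and 4 by DESeq2, 5 by edgeR on all 16 samples and 8 in a fit of every gene with at least 1 count. The share of all genes called moved too. In shAjuba2 against shScrambled it went from 7.63% to 2.24% without shAjuba2 replicate 1 and to 22.7% without replicate 2. In AjubaOE against Control it went from 5.43% to 1.89% without Control replicate 3. In shScrambled against Parental it went from 30.7% to 7.19% by edgeR on all 16 samples. In Control against Parental it went from 0.370% to 4.73% without Control replicate 2. Fits with 1 shScrambled sample also called a smaller share. A fit that leaves 1 sample in a line assumes that it varies like the other line.

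The labels share replicate numbers but do not say that they pair samples. Deviations of same-numbered samples had a mean correlation of 0.149, -0.0119, 0.244, -0.0811 and -0.15 in the 5 comparisons, in the order given above. In AjubaOE against Control the single values ran from -0.0474 to 0.616. In shScrambled against Parental, with 2 samples in each line, both pairs must give the same value. With the replicate number as a block, 59, 31, 36, 22 and 2 genes were called, and the share of all genes tested that was called went from 7.63% to 24.0%, 38.4% to 42.0%, 5.43% to 24.3%, 30.7% to 25.4% and 0.370% to 1.47%. The block raised the count in shAjuba2 against shScrambled, AjubaOE against Control and Control against Parental, each together with this share. No direction was reversed under the alternatives run. For single genes, 1314 of the test results kept their direction and side of the threshold, 250 lost the call and 3 gained it, and 82 of the folds moved by more than the spread between samples while 1452 did not. All 3 gains were of AJUBA in shAjuba2 against shScrambled. The causes were not tested.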
